A study of Mus musculus with 15 samples.

Results

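The nuclear-encoded subunits of the mitochondrial respiratory chain were followed across the cell classes of the embryonic mouse heart, between libraries with intact Adamts19 (wild-type, WT) and libraries homozygous for a knockout of it (KO), and between the 2 KO alleles. The genes were chosen by symbol alone: every gene whose symbol starts with Nduf followed by a, b, c, s or v and a digit, with Uqcr, with Cox followed by a digit from 4 to 8, or with Atp5. This gave 80 of the 16809 genes in the table: 35 of complex I (NADH dehydrogenase), 8 of complex III (cytochrome bc1), 19 of complex IV (cytochrome c oxidase, with Ndufa4 and its paralogue Ndufa4l2) and 18 of complex V (ATP synthase). Of these 18, 3 match the symbol but encode no subunit (the pseudogene Atp5l-ps1, and Atp5s and Atp5sl). The rule itself used no measured value, but it was set with earlier results of these data known.

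Complexes I and III pass electrons from NADH to cytochrome c, complex IV passes them to oxygen, and complex V makes ATP from the proton gradient that results. Most of their subunits are encoded in the nucleus and imported, and a core of them is encoded by the mitochondrial genome. Heart muscle is rich in mitochondria, and several complex IV subunits come in pairs of genes, one used in heart and skeletal muscle (Cox6a2, Cox7a1, Cox8b) and one used in most tissues (Cox6a1, Cox7a2, Cox8a).

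Drop-seq, which tags the 3′ end of polyadenylated RNA of single cells with a cell barcode and a unique molecular identifier (UMI), was applied to whole hearts of C57BL6/N embryos at E14.5. Because 1 tag stands for 1 captured molecule whatever the transcript's length, levels in CPM (counts per 1e6 UMIs) are comparable between genes as numbers of tags. The 7 WT libraries came from litters 1 (replicates 1 and 2), 2 (3 and 4), 3 (5) and 4 (6 and 7). The 8 KO libraries were homozygous for 1 of the alleles labelled tm4a (replicate 1 from litter 5, replicates 2 to 4 from litter 6) and tm4b (replicates 5 to 8, all from litter 7). All KO libraries and WT replicate 5 were sequenced on 1 flow cell, and the other 6 WT libraries on other flow cells. No litter held both genotypes or both alleles, so litter cannot be told apart from either, and p-values measure the spread between libraries, some of which share a litter. The number of embryos per library and the extent of the Adamts19 deletion were not given in the sources used here.

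Libraries held 5373330 to 11198676 UMIs in 50775 kept cells, 22381 WT and 28394 KO. The median UMI count per cell was 1801 ± 323 in WT (SD, n = 7), 1498 ± 263 in tm4a (n = 4) and 1581 ± 35.6 in tm4b libraries (n = 4). Adamts19 stood at 15.8 to 49.9 CPM in WT and 5.28 to 8.60 CPM in KO libraries, and the reporter LacZ had 0 UMIs in every WT library and 29 to 522 in KO libraries. Of 55053 distinct barcode sequences, 87 occurred in at least 2 libraries. Cells were clustered without the 80 genes, and 21567 cells lay in clusters led by sarcomere genes, called cardiomyocyte-like (41.7% ± 4.57 of kept cells in WT, 46.1% ± 4.77 in tm4a and 40.6% ± 4.81 in tm4b libraries). The share of haemoglobin genes was 1.56% ± 1.93 in WT libraries and 0.345% ± 0.152 in KO libraries.

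The promoters of 66 of the 80 genes were found in RefSeq (GRCm38.p6). The 250 bases upstream of the start site are shown first for the muscle and general forms of 2 complex IV subunits, Cox7a and Cox8, because both genes of each pair have an entry and the pairs differ in base composition. They are written 5′ to 3′ on the gene's strand, with every CG dinucleotide in capitals. The windows are chr7:30183921-30184170 on the plus strand for Cox7a1, chr9:79759854-79760103 on the minus strand for Cox7a2, chr7:140900447-140900696 on the minus strand for Cox8b and chr19:7217617-7217866 on the minus strand for Cox8a.
Cox7a1: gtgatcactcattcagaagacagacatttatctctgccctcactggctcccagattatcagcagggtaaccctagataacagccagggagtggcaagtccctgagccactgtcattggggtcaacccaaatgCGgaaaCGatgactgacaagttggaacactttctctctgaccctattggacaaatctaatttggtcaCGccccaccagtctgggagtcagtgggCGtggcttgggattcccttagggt
Cox7a2: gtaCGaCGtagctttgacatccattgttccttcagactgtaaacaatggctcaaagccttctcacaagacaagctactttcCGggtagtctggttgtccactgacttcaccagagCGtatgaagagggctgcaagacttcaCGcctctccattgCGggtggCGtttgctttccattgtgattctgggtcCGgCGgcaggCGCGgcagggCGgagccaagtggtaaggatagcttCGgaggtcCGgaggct
Cox8b: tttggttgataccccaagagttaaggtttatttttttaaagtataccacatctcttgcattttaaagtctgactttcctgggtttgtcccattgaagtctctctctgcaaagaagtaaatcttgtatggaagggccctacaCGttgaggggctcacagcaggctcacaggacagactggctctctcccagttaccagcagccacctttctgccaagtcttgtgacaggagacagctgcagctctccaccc
Cox8a: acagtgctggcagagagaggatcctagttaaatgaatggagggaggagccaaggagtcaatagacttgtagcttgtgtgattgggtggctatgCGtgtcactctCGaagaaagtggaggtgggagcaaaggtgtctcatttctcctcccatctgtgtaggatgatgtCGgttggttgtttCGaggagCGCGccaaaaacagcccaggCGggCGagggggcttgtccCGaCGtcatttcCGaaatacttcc

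The muscle forms Cox7a1 and Cox8b held 4 and 1 CG in these windows, and the general forms Cox7a2 and Cox8a held 14 and 11. The median was 14 over the members' windows and 6 over the 32851 windows of all genes. Only 5 members had 5 or fewer (Cox7a1, Cox7b, Cox8b, Ndufc2 and Uqcr10), 6.94% of the members' windows against 49.6% of all. The general form Cox6a1 and the complex I subunit Ndufa11 are shown for a motif of NRF1, a transcription factor known for its sites at nuclear respiratory genes. Its letters GCGCATGCGC are in capitals, and the windows are chr5:115348959-115349208 on the minus strand and chr17:56717512-56717761 on the plus strand. The motif's first base lies 162 bases before the start site in Cox6a1 and 60 before it in Ndufa11.
Cox6a1: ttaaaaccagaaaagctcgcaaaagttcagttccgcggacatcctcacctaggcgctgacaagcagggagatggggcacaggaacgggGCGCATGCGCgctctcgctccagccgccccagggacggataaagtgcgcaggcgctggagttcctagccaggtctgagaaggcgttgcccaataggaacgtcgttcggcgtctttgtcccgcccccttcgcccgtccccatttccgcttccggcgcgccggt
Ndufa11: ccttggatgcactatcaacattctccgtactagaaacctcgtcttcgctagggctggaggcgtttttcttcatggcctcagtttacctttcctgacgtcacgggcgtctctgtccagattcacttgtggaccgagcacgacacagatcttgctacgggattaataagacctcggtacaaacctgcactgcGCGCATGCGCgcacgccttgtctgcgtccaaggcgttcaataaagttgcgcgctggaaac

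Over windows from 250 bases before to 50 after the start, searched on both strands, these 10 letters occurred in 5 of 66 members (7.58%) and in 1.07% of 27025 genes. The 9 letters CGCATGCGC, which lie within them, occurred in 8 members (12.1%) and in 1.95% of genes. The core of ETS factors such as GABPA, GGAAG, occurred in 71.2% of members and 73.9% of genes. A match describes these letters only.

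The members were higher in cardiomyocyte-like cells than in all other cells. They took 9.82% ± 0.99 of UMIs there (SD, n = 15 libraries) and 3.02% ± 0.37 in other cells, and the lowest cardiomyocyte-like value, 8.56%, lay above the highest value of the other cells, 3.61%. Complex I took 2.91% against 0.98%, complex III 1.19% against 0.34%, complex IV 3.06% against 0.92% and complex V 2.66% against 0.78%. The mitochondrially encoded transcripts took 3.42% against 2.23%, in a table where no barcode held more than 10% of them. The effect of that limit on the 2 shares was not tested. These are shares of a class's own UMIs and not amounts per cell. In such sums, fewer cells with a transcript and less of it per cell cannot be told apart.

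Per gene, 77 members passed the filter on low counts, and all of them passed the test between cardiomyocyte-like and other cells within libraries (edgeR's quasi-likelihood test with library as a block, Benjamini-Hochberg adjusted p under 0.05 over 12182 genes). Of these, 74 were higher and 3 lower, where 39.3% of all genes tested were called higher and 45.9% lower. The median log2 fold change was 2.06 over the members and −0.07 over all genes, and without TMM factors 1.69 and −0.43. By complex, 35 of 35 tested members of complex I were higher (median 1.96), 8 of 8 of complex III (2.22), 15 of 18 of complex IV (2.08) and 16 of 16 of complex V (from 1.28 to 2.46). Not tested were Atp5g2, Cox7b2 and Atp5l-ps1, which had 68, 75 and 298 UMIs in all libraries together.

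**Figure D1:**
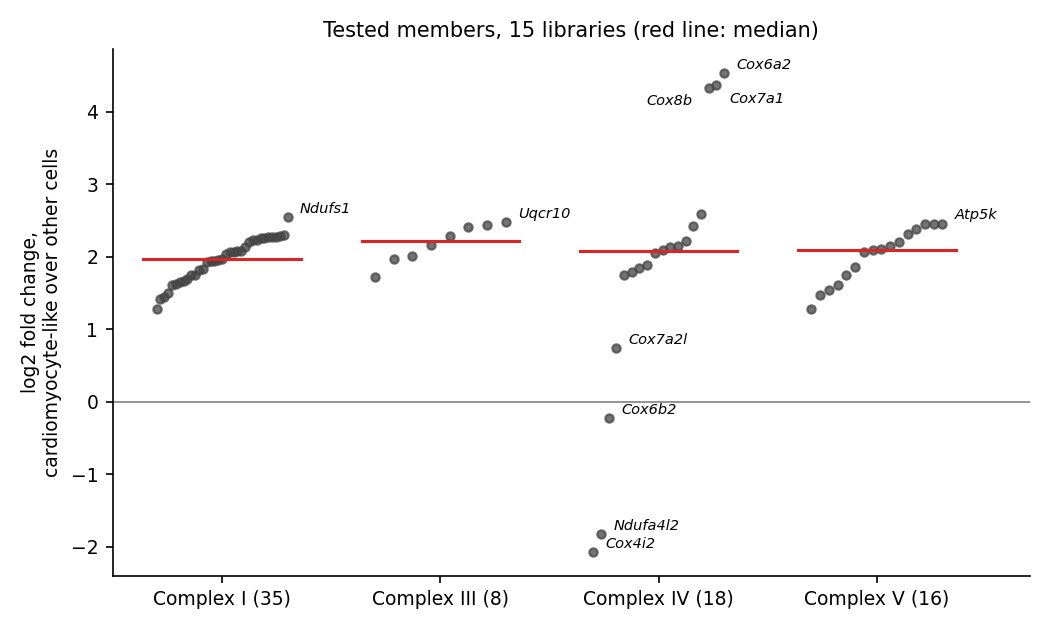
Log2 fold change of each tested member between cardiomyocyte-like and all other cells (y axis), by complex (x axis, number tested in brackets), from 15 libraries with library as a block. Each point is 1 gene and the red line is the median of its complex. Cox6a2, Cox7a1 and Cox8b lie above 4, and Cox4i2, Ndufa4l2 and Cox6b2 lie below 0.

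The muscle forms of 3 complex IV subunits differed most. Cox6a2 (chr7:128205435-128206387), a regulatory subunit of cytochrome c oxidase, stood at 1728 ± 221 CPM in cardiomyocyte-like and 100 ± 40.7 CPM in other cells (SD, n = 15), a log2 fold change of 4.53 (SE 0.12, adjusted p = 1.66e-20). Cox7a1 (chr7:30184144-30186078) stood at 541 ± 107 against 35.1 ± 18.1 CPM (log2 fold change 4.37), and Cox8b (chr7:140898945-140900446) at 336 ± 84.8 against 21.9 ± 10.4 CPM (4.33). Their general partners were higher in cardiomyocyte-like cells too, but by less: Cox6a1 by 1.75, Cox7a2 by 2.13 and Cox8a by 2.06 on the log2 scale. The difference between partners was not itself tested.

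Outside muscle the 3 muscle forms were near the level of the 3 sarcomere transcripts given here. The level in other cells was 5.85% of that in cardiomyocyte-like cells for Cox6a2, 6.36% for Cox7a1 and 6.54% for Cox8b. It was 6.39% for Tnni3, 6.97% for Tnnt2 and 7.79% for Myl7, which encode troponin I, troponin T and the atrial myosin light chain. No expression in other cells is read from the values of the muscle forms, and the source of these UMIs was not tested. The next lowest member was Cox5a at 21.6%, and Atp5b (24.8%), Cox7a2 (29.4%), Cox4i1 (35.9%) and Cox6a1 (38.3%) lay above it.

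The most abundant member of each complex in cardiomyocyte-like cells was Ndufc1, an accessory subunit of complex I, at 1682 ± 224 CPM, Uqcr10, a small subunit of complex III, at 2346 ± 305, Cox6c, a structural subunit of complex IV, at 4339 ± 508, and Atp5b, the catalytic beta subunit of ATP synthase, at 3682 ± 504 (SD, n = 15). All 4 were higher there than in other cells, by 2.29 (Ndufc1) to 2.48 (Uqcr10) on the log2 scale apart from Cox6c, whose difference was smaller. Within complex I the largest difference was that of Ndufs1, an iron-sulphur subunit, at 2.54. In complex V, Atp5k (subunit e) differed by 2.46, Atp5o, a stalk subunit, by 2.45 and Atp5g1 and Atp5g3, 2 of the 3 genes for subunit c of the rotor ring, by 2.45 and 2.31.

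The members lower in cardiomyocyte-like cells were alternative forms of complex IV subunits. Cox4i2, the alternative form of Cox4i1 known from lung and from low oxygen, stood at 7.79 ± 1.44 CPM against 42.9 ± 13.8 in other cells (log2 fold change −2.07, SE 0.11, adjusted p = 5.64e-15). It was highest in fibroblast-like (92.5 CPM), valve interstitial-like (76.3) and mural-like cells (57.3). Ndufa4l2, a hypoxia-inducible paralogue of Ndufa4, stood at 7.79 ± 2.80 against 36.5 ± 13.4 CPM (−1.83, adjusted p = 1.96e-12) and reached 130 ± 43.2 CPM in fibroblast-like cells. Cox6b2, the form of Cox6b1 known from testis, differed by −0.22 (adjusted p = 8.22e-05) and was highest in epicardial-like cells at 182 ± 56.4 CPM. Cox7a2l, a factor that joins complexes III and IV into supercomplexes, was only slightly higher in muscle, by 0.74.

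As a share of the pair's UMIs, Cox4i2 held 5.58% ± 1.48 of Cox4i2 plus Cox4i1 in fibroblast-like, 5.48% ± 1.56 in valve interstitial-like and 4.08% ± 1.98 in mural-like cells, against 0.183% in cardiomyocyte-like and 0.200% in endocardial-like cells. The first 3 classes overlapped each other over libraries. Ndufa4l2 held 14.9% ± 4.63 of its pair in fibroblast-like cells, 1.87% in valve interstitial-like cells and 0.311% in cardiomyocyte-like cells, and the lowest fibroblast-like library (8.23%) lay above the highest valve interstitial-like one (3.98%). Cox6b2 held 17.7% ± 4.35 in epicardial-like and 1.31% in cardiomyocyte-like cells. Mural-like (8.42%), valve interstitial-like (8.09%) and fibroblast-like cells (7.94%) lay between these and overlapped each other.

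Among the classes outside muscle the summed level of the members varied little. It was 3.28% of UMIs in vascular endothelial-like, 3.01% in macrophage-like, 2.96% in epicardial-like, 2.92% in fibroblast-like, 2.84% in mural-like, 2.80% in valve endothelial-like, 2.75% in endocardial-like and 2.69% in valve interstitial-like cells (means of 15 libraries). Neighbours in this order differed by less than the SD over libraries, which lay between 0.36 and 0.47. Erythroid-like cells stood lowest, at 1.95% ± 0.44 in the 9 libraries with at least 10 such cells.

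Within muscle, the members were lower in atrial-type than in ventricular-type cells. They took 8.69% and 10.20% of UMIs. Of 77 tested members, 60 were lower and 6 higher in atrial-type cells, where 26.7% of all genes were called lower and 26.4% higher. The median log2 fold change was −0.25 over the members and −0.01 over all genes. Lower were Ndufs6 (689 against 1106 CPM, log2 fold change −0.69), Cox8a (−0.47), Ndufv1, the NADH-binding subunit of complex I (−0.45), Uqcrc1 and Uqcrc2, the core proteins of complex III (−0.48 and −0.44), and Atp5f1 (−0.41) and Atp5b (−0.30) of complex V.

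Among the pairs with a muscle form, only Cox6a2 and Cox6a1 moved in opposite directions between the chambers. Cox6a2 was higher in atrial-type cells, at 2467 against 1483 CPM (log2 fold change 0.73, SE 0.029, adjusted p = 3.53e-24), and its partner Cox6a1 was lower, at 1732 against 2624 CPM (−0.59). Cox6a2 thus made up 58.6% (50.6 to 63.8) of the pair in atrial-type, 48.0% ± 3.18 in trabecular-type, 37.4% ± 2.62 in compact-type and 32.2% ± 2.42 in mitotic cardiomyocyte-like cells (range or SD, n = 15). The lowest atrial-type library lay above the highest compact-type library (43.2%), while atrial-type and trabecular-type libraries overlapped. Cox8b went the other way, at 199 CPM in atrial-type and 378 in ventricular-type cells (−0.94, SE 0.042), and Cox7a1 and Cox7a2 were both lower in atrial-type cells (−0.20 and −0.57). The other members higher in atrial-type cells differed by 0.22 (Atp5s), 0.14 (Ndufa4), 0.13 (Ndufb11), 0.10 (Ndufa11) and 0.09 (Ndufs4).

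Trabecular-type cells, a ventricular cluster with Gja5, Nppa, Nppb, Cited1 and Gtsf1 as leading genes, were set against compact-type cells, 1 of whose clusters was shallow (median 635 UMIs per cell). Of 75 tested members, 11 were higher and 23 lower, where 16.6% and 18.5% of all genes were called, and the medians were −0.06 and −0.03. Cox8b was the member that differed most, at 728 against 393 CPM (log2 fold change 0.91, SE 0.054, adjusted p = 2.63e-33), and made up 27.1% ± 4.50 of Cox8b plus Cox8a in trabecular-type and 15.9% ± 2.79 in compact-type cells. Cox6a2 (0.35), Ndufa1 (0.43), Ndufa13 (0.30) and Uqcr11 (0.26) were higher as well, and Cox6a1 (−0.28), Atp5g1 (−0.26), Uqcrc1 (−0.25) and Ndufs7 (−0.23) were lower. Cox7a1 differed by 0.10 and did not pass the test (adjusted p = 0.119). The split of calls moved with the processing: it was 5 higher and 42 lower with no filter on low counts, 27 and 9 with called doublets kept, 23 and 19 with the members among the clustering genes, 25 and 15 at a finer clustering resolution, and 9 and 35 without TMM factors. The direction for Cox6a1 was 0.0011 with called doublets kept and that for Cox7a1 was −0.01 with no filter, while Cox8b kept its direction in these alternatives.

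**Figure D2:**
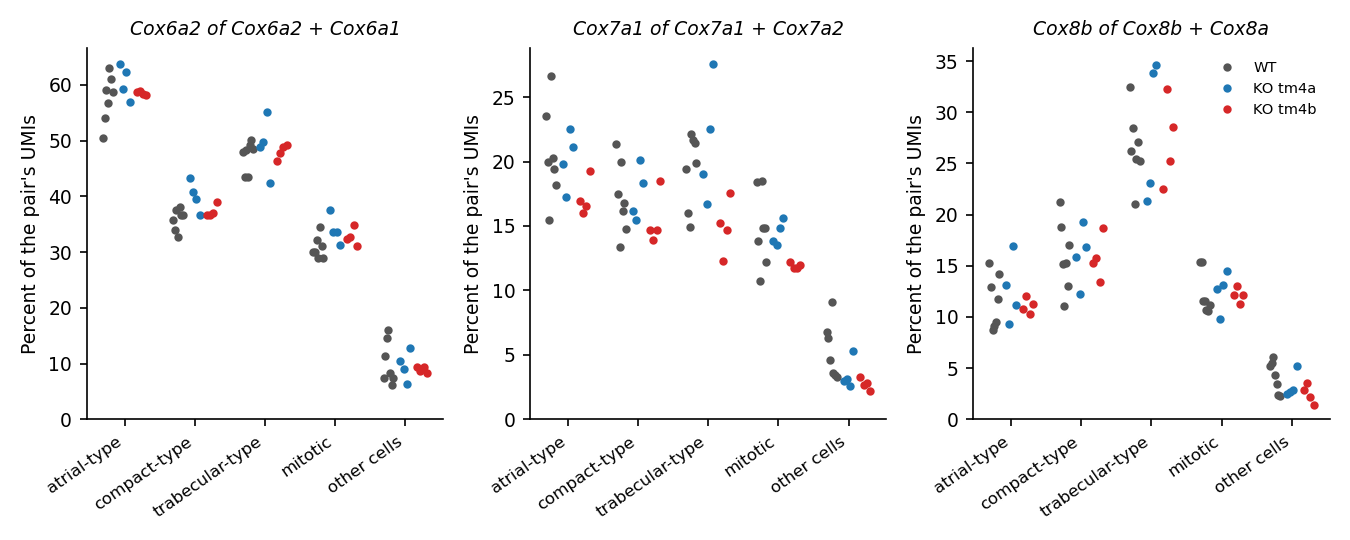
Share of the muscle form in the UMIs of its pair (y axis, percent) for Cox6a2 with Cox6a1, Cox7a1 with Cox7a2 and Cox8b with Cox8a, in 4 types of cardiomyocyte-like cells and in other cells (x axis). Each point is 1 library, coloured by WT, KO tm4a and KO tm4b. Cox6a2 is highest in atrial-type and Cox8b in trabecular-type cells, and KO libraries overlap WT libraries in each panel.

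The other genes of oxidative metabolism, taken from lists of known pathway genes, were also higher in cardiomyocyte-like than in other cells. All 4 complex II genes (log2 fold changes of 1.98 to 2.24), 24 of 24 genes of the citric acid cycle and pyruvate dehydrogenase (median 2.09), 16 of 17 of fatty acid oxidation (2.05), 38 of 39 assembly factors (1.40), 74 of 75 of the mitochondrial ribosome (1.07) and 19 of 19 mitochondrially encoded transcripts (1.54) were called higher. Examples were Idh3a, an isocitrate dehydrogenase subunit (2.97), Fabp3, the heart fatty acid-binding protein (3.84), Cycs and Cyc1, which encode cytochromes c and c1 (2.58 each), and the regulator Ppargc1a (3.35). Of 17 regulators of mitochondrial genes, 12 were higher and 4 lower. Of all genes tested, 39.3% were called higher and 45.9% lower in this comparison.

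KO and WT libraries were then compared. In cardiomyocyte-like cells the members took 9.41, 9.34, 9.03, 11.57, 10.47, 11.16 and 11.21% of UMIs in WT replicates 1 to 7, 10.21, 9.72, 10.06 and 10.33% in the tm4a libraries, and 8.86, 8.78, 8.56 and 8.65% in the tm4b libraries. The tm4a libraries lay within the WT range, and the 4 tm4b libraries lay below all others. In other cells the values were 3.20% ± 0.33 in WT, 3.14% ± 0.22 in tm4a and 2.57% ± 0.15 in tm4b libraries (SD, n = 7, 4 and 4), and all tm4b libraries (2.38 to 2.73%) lay below the lowest WT library (2.74%).

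**Figure D3:**
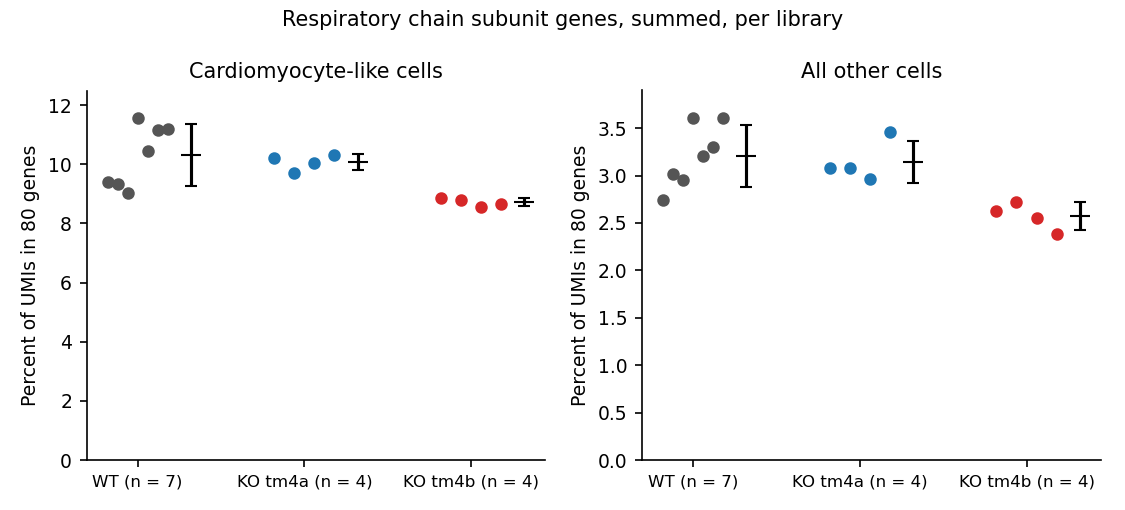
Percent of UMIs held by the 80 genes in each library (y axis), in cardiomyocyte-like cells (left) and all other cells (right), for WT, KO tm4a and KO tm4b libraries (x axis). Points are libraries, and the bar beside each group gives its mean ± SD. The tm4b libraries, at 8.56 to 8.86% and 2.38 to 2.73%, lie below the other groups.

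Of 78 tested members, 0 passed the edgeR test between KO and WT over all kept cells, where 0.208% of all genes were called. In cardiomyocyte-like cells 0 of 78 passed (1.39% of all genes called), in all other cells 0 of 77 (0.144%), and in fibroblast-like cells 0 of 76 (0.0467%). In valve interstitial-like cells 1 of 74 passed (0.221%), and in endocardial-like cells 1 of 73 (0.298%). An unadjusted p under 0.05 was found for 11 of 78 members over all kept cells (15.9% of all genes), 12 of 78 in cardiomyocyte-like (16.7%), 21 of 77 in other (16%), 18 of 76 in fibroblast-like (14.8%), 20 of 74 in valve interstitial-like (13.8%) and 30 of 73 in endocardial-like cells (13.1%). In the first 2 of these sets of cells the members' share was no higher than that of all genes. In the same order DESeq2 called 3, 2, 4, 4, 3 and 6 of the 71 to 78 members with an adjusted p, where it called 4.93, 3.63, 4.52, 1.34, 1.81 and 1.47% of all genes. Most members' fold changes were below 0 all the same: 69 of 78 over all cells, where 54.5% of all genes were below 0. In cardiomyocyte-like cells 68 of 78 were (54.8% of all genes), and in other cells 72 of 77 (54.5%). The medians were −0.16, −0.16 and −0.20 over the members and −0.02, −0.02 and −0.03 over all genes. In endocardial-like cells 72 of 73 members were below 0, all 35 of complex I among them, against 52.2% of all genes. Short genes that are no members had medians below 0 too. In endocardial-like cells these were −0.14 at transcripts of up to 600 bases and −0.07 at 600 to 800, against 0.02 above 2500. The members' medians were −0.27 at up to 600 bases and −0.25 at 600 to 800. In cardiomyocyte-like cells, the medians at up to 600 bases were −0.11 for genes that are no members and −0.18 for members. Haemoglobin, the median UMI count per cell and the flow cell also differed between these WT and KO libraries. Their part in the values, and that of transcript length, was not tested.

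The 2 members that passed in a class were Cox5a and Uqcrfs1. Cox5a, a structural subunit of complex IV, stood in valve interstitial-like cells at 210, 308, 218, 337, 275, 318 and 366 CPM in WT replicates 1 to 7, at 167, 161, 163 and 220 CPM in the tm4a libraries and at 206, 177, 171 and 174 CPM in the tm4b libraries. The groups overlapped through KO replicate 4 and WT replicates 1 and 3. The log2 fold change was −0.72 (SE 0.15, adjusted p = 0.0346). Uqcrfs1, the Rieske iron-sulphur protein of complex III, stood in endocardial-like cells at 137, 225, 126, 191, 179, 166 and 211 CPM in WT, at 72.0, 126, 90.5 and 122 CPM in tm4a and at 120, 113, 107 and 99.4 CPM in tm4b libraries. KO replicate 2 (125.8 CPM) and WT replicate 3 (126.3 CPM) were next to each other, every other KO library was lower and every other WT library higher. The log2 fold change was −0.76 (SE 0.15, adjusted p = 0.0277).

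Both calls depended on which libraries were included. The Cox5a call was lost without WT replicate 2, 4, 5, 6 or 7, or without KO replicate 2, 3, 5, 7 or 8, and the Uqcrfs1 call was lost without KO replicate 5, 7 or 8, in each case with the direction kept. With flow cell as a covariate, where WT replicate 5 alone stands for WT against the 8 KO libraries, Cox5a stood at −0.65 (adjusted p = 0.574) and Uqcrfs1 at −0.79 (0.429). With counts summed per litter, which leaves 4 WT and 3 KO sums, they stood at −0.69 (0.422) and −0.83 (0.213). Neither passed in these smaller fits, and the fold changes were of the same size as with all libraries. WT replicate 5, the WT library on the flow cell of the KO libraries, stood at 275 CPM for Cox5a and 179 CPM for Uqcrfs1 in these classes. These values lay above every KO library, but this library is among those that gave the calls, so its position is not a separate observation. In cardiomyocyte-like cells its Cox5a level lay just below that of KO replicate 5.

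The same 2 genes had values of like size in each class tested, and passed in no other. In cardiomyocyte-like cells Cox5a stood at 1405, 2083, 1337, 2152, 1473, 2012 and 2257 CPM in WT replicates 1 to 7, at 981, 1217, 1176 and 1172 in tm4a and at 1478, 1309, 1395 and 1403 in tm4b libraries. The tm4a libraries lay below every WT library, and the tm4b libraries overlapped WT replicates 1, 3 and 5. The log2 fold change was −0.56 (adjusted p = 0.0534, and 0.0468 without TMM factors). Uqcrfs1 stood at 632, 979, 509, 831, 725, 856 and 1019 CPM in WT, at 334, 621, 440 and 465 in tm4a and at 655, 601, 539 and 567 in tm4b libraries, with overlap (−0.63, adjusted p = 0.0567). In fibroblast-like cells the log2 fold changes were −0.65 and −0.72 (adjusted p = 0.0731 for each), and over all kept cells −0.58 (0.0596) and −0.65 (0.0612).

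Set against the same WT libraries, the 2 alleles gave different values for the family as a whole. The median log2 fold change of the members in cardiomyocyte-like cells was 0.01 for tm4a over WT and −0.36 for tm4b over WT. In other cells the medians were −0.04 and −0.42. For tm4a and tm4b over WT, 0 members passed the adjusted test in any of the 6 sets of cells, where at most 0.0807% and 0.26% of all genes did. In cardiomyocyte-like cells 2 of 78 members for tm4a (10.1% of all genes) and 42 of 78 for tm4b (17%) had an unadjusted p under 0.05, and in other cells 3 of 77 (9.88%) and 55 of 77 (16.4%). Cox5a and Uqcrfs1 did not follow the family: in cardiomyocyte-like cells Cox5a stood at −0.66 for tm4a and −0.46 for tm4b over WT, and Uqcrfs1 at −0.75 and −0.50. These comparisons share their WT libraries, so the values of the alleles are not independent.

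**Figure D4:**
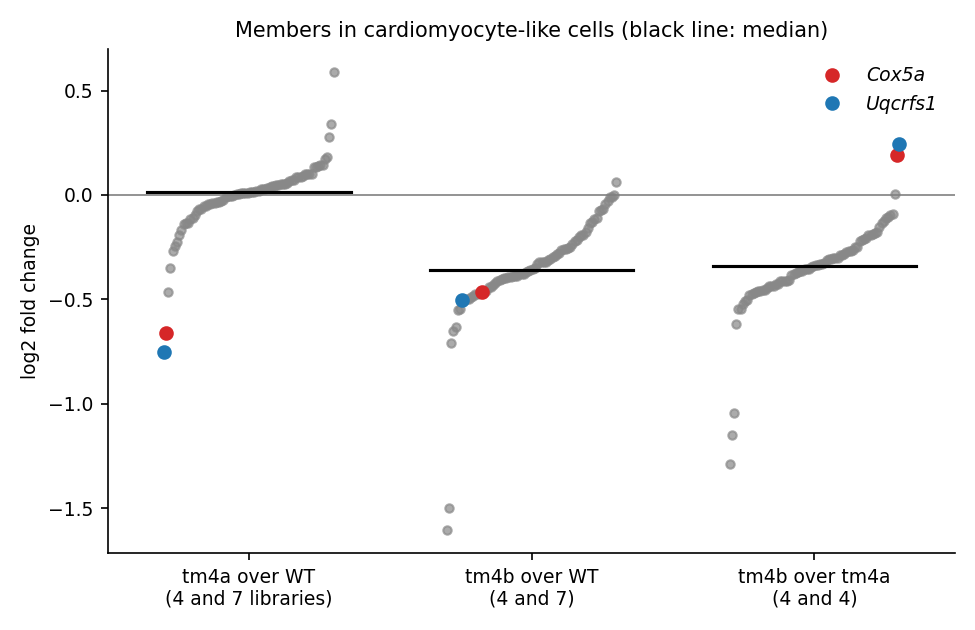
Log2 fold change of each member in cardiomyocyte-like cells (y axis) for tm4a over WT, tm4b over WT and tm4b over tm4a (x axis). Each point is 1 gene, the black lines are medians (0.01, −0.36 and −0.34), Cox5a is red and Uqcrfs1 blue. Cox5a and Uqcrfs1 lie near the bottom of the first set and above 0 in the third.

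The muscle forms did not pass between KO and WT. In cardiomyocyte-like cells the log2 fold changes were −0.09 for Cox6a2, −0.18 for Cox7a1 and −0.42 for Cox8b (adjusted p = 0.79, 0.617 and 0.188), and those of the first 2 were 0.09 and 0.07 with the tm4a libraries alone. In other cells they were −0.47, −0.86 and −0.88 (adjusted p = 0.342, 0.147 and 0.151). The level in other cells as a percent of that in cardiomyocyte-like cells was 7.88 in WT and 5.02 in KO libraries for Cox7a1. It was 8.38 and 5.75 for the sarcomere transcript Tnnt2. The other muscle forms and the other sarcomere transcripts are not given by genotype here. Whether UMIs from muscle cells take part in the values of the muscle forms in other cells was not tested. The test of the KO effect in cardiomyocyte-like minus that in other cells called 0 of 78 members (0.315% of all genes called). At an unadjusted p under 0.05 there were 2 members, where 9.09% of all genes had one. DESeq2 called 0 members and 0.629% of all genes there, and the values were 0.68 for Cox7a1 and 0.49 for Cox8b.

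Between the KO alleles, the members were lower in tm4b than in tm4a libraries. The alleles share a flow cell but no litter: all tm4b libraries came from litter 7, and the tm4a libraries from litters 5 and 6. Allele and litter thus cannot be told apart in any value below, and the adjusted p-values measure the spread between libraries and not between litters. Over all kept cells 59 of 78 tested members fell in tm4b relative to tm4a (7.39% of all genes called lower), in cardiomyocyte-like cells 56 of 78 (6.21%) and in other cells 42 of 77 (5.32%), and 0 members rose (7.92, 6.26 and 5.83% of all genes called higher). The median log2 fold changes were −0.46, −0.34 and −0.37 over the members and 0.02, 0.01 and 0.00 over all genes. In cardiomyocyte-like cells 30 of 35 members of complex I fell (median over those tested −0.37), 6 of 8 of complex III (−0.30), 10 of 18 of complex IV (−0.30) and 10 of 17 of complex V (−0.33). As shares of UMIs, complex I took 3.03% ± 0.10 in tm4a and 2.54% ± 0.036 in tm4b libraries, complex III 1.21% and 1.04%, complex IV 3.11% and 2.73%, and complex V 2.74% and 2.41% (n = 4 each). The share of cardiomyocyte-like cells among kept cells was 46.1% ± 4.77 in tm4a and 40.6% ± 4.81 in tm4b libraries, and its part in the values over all kept cells was not tested. The scaling of the sums bears on these sizes: without TMM factors the median of all genes stood at 0.12 in cardiomyocyte-like cells, 0.13 over all kept cells and 0.07 in other cells, the members' medians stood at −0.23, −0.35 and −0.30, and 42, 50 and 30 members fell (2.95, 3.64 and 3.23% of all genes). Cox5a then passed as higher in tm4b in cardiomyocyte-like cells (0.30, adjusted p = 0.0166), and Cox4i1, Cox6a1, Cox7a2, Ndufa4, Atp5b and Atp5l no longer passed as lower there (Atp5b at −0.16, adjusted p = 0.0889).

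In complex I, Ndufs7, an iron-sulphur subunit near the quinone site, stood in cardiomyocyte-like cells at 682, 677, 681 and 698 CPM in tm4a and at 531, 508, 510 and 528 CPM in tm4b libraries. The groups did not overlap, and the log2 fold change was −0.51 (SE 0.070, adjusted p = 0.00116). The WT libraries ranged from 536 to 799 CPM, with a median of 710, so the tm4b libraries lay just below that range. Ndufa3 (−0.50) and Ndufc1 (−0.35) fell as well, and in other cells Ndufs7 and Ndufv1 fell by 0.53 each on the log2 scale.

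In complex III, Uqcr11 stood at 2086, 2031, 2260 and 2474 CPM in tm4a and at 1618, 1619, 1657 and 1748 CPM in tm4b libraries (log2 fold change −0.52, SE 0.077, adjusted p = 0.00147). The groups did not overlap, and WT libraries ranged from 1713 to 2818 CPM. Uqcrb (−0.38), Uqcrq (−0.34) and Uqcr10 (−0.33) fell too. Uqcrfs1 did not, at 0.24 (adjusted p = 0.252).

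In complex IV the muscle forms and the general forms fell together. Cox7a1 stood at 584, 481, 642 and 661 CPM in tm4a and at 437, 416, 413 and 480 CPM in tm4b libraries, with KO replicate 2 and KO replicate 8 a single CPM apart (log2 fold change −0.55, SE 0.099, adjusted p = 0.00391). Cox8b stood at 339, 255, 437 and 314 against 277, 223, 221 and 268 CPM, with overlap through KO replicate 2 (−0.55, SE 0.13, adjusted p = 0.0164). Cox6a2 stood at 1728, 1952, 1937 and 1787 against 1473, 1538, 1561 and 1575 CPM, with no overlap (−0.37). The general forms Cox8a (−0.46), Cox6a1 (−0.30) and Cox7a2 (−0.27) fell too, as did Cox6c (−0.42), Cox6b1 (−0.36), Cox4i1 (−0.30) and Ndufa4 (−0.28). The shares of Cox6a2 and Cox8b overlapped between the alleles: Cox6a2 made up 43.9% ± 2.35 of its pair in tm4a and 42.6% ± 0.968 in tm4b libraries, and Cox8b 14.9% and 14.2%. Cox7a1 (−0.55) and its partner Cox7a2 (−0.27) lay further apart, and the share of Cox7a1 is not given by allele here. Cox5a (0.19, adjusted p = 0.111), Cox7a2l (−0.21, 0.0886) and Cox6b2 (−0.19, 0.324) did not pass.

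In complex V, Atp5j, a subunit of the stalk, stood at 1898, 1983, 1786 and 1859 CPM in tm4a and at 1275, 1236, 1391 and 1393 CPM in tm4b libraries (log2 fold change −0.62, SE 0.071, adjusted p = 0.000485). The groups did not overlap, but the WT libraries ranged from 1207 to 2575 CPM, with replicates 1, 2 and 3 (1468, 1207 and 1222 CPM) at the tm4b level. Atp5g1 (−0.45) and the catalytic Atp5b (−0.27) fell, and Atp5g3 did not pass (−0.11, adjusted p = 0.518). In other cells Atp5j (−0.57), Atp5o (−0.52) and Atp5g1 (−0.47) fell.

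Several members have uncertain counts because the 3′ end of their transcript is shared with other genes, mostly processed pseudogenes. Of the 50-base stretches in the last 300 bases, 73.3% were shared for Cox7c, 70.1% for Atp5l, 54.6% for Ndufs5 and 53.0% for Ndufs3. The largest differences between alleles in cardiomyocyte-like cells belonged to such genes: Atp5l at −1.29, Atp5l-ps1 at −1.15 and Ndufs5 at −1.04. Ndufs5 stood at 111, 101, 86.0 and 76.5 CPM in tm4a and at 59.5, 32.9, 58.1 and 46.4 CPM in tm4b libraries, and WT libraries ranged from 59.0 to 257 CPM.

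The call counts between alleles rested on some libraries more than others. Without KO replicate 7 they were 20 over all kept cells (1.87% of all genes called lower), 37 in cardiomyocyte-like cells (2.74%) and 10 in other cells (1.15%). Without KO replicate 8 they were 33 over all kept cells (3%) and 18 in other cells (1.87%), and without KO replicate 5 they were 27 in other cells (3.02%). In these cases the number of members below 0 was 75 or more of those tested in cardiomyocyte-like cells. With all libraries it was 75 of 78 there, where 48.2% of all genes were below 0.

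Transcript length moved with the difference between the alleles. The members are short, with a median annotated transcript length of 645 bases. Among genes that are no members, the median log2 fold change of tm4b over tm4a in cardiomyocyte-like cells was −0.12 at up to 600 bases, −0.10 at 600 to 800, −0.14 at 800 to 1000, −0.07 at 1000 to 1500, 0.01 at 1500 to 2500 and 0.11 above 2500 bases. The members' medians in the first 4 of these ranges were −0.37 (31 genes), −0.36 (20), −0.31 (11) and −0.21 (11), lower than those of other genes of the same length. In other cells the members' medians were −0.40, −0.40, −0.39 and −0.28, against −0.15, −0.13, −0.14 and −0.09. The part of length in the members' difference was not tested further.

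**Figure D5:**
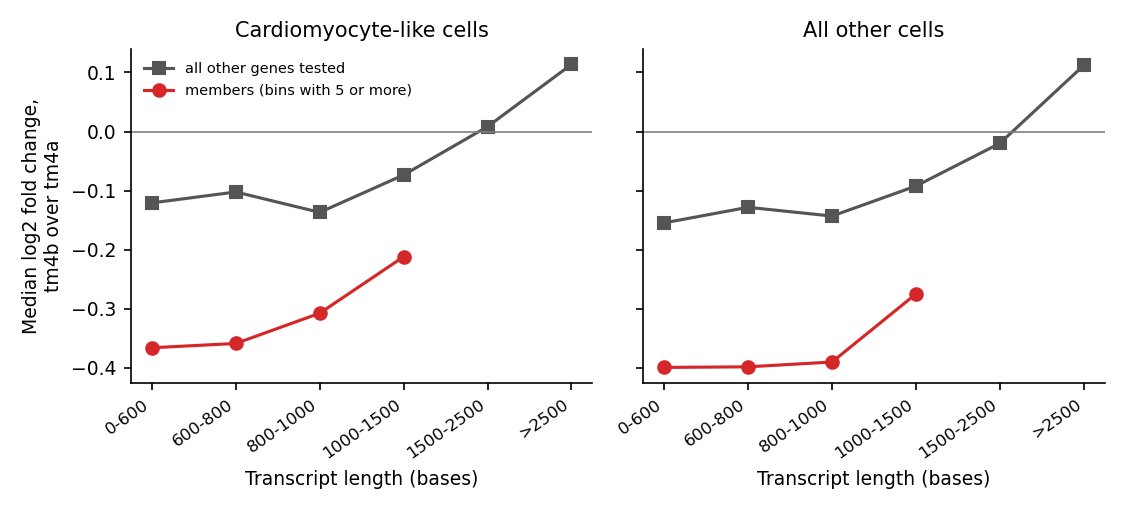
Median log2 fold change of tm4b over tm4a libraries (y axis) by annotated transcript length in bases (x axis), for the members (red, ranges with at least 5 of them) and all other genes tested (grey), in cardiomyocyte-like cells (left) and other cells (right). Other genes go from below 0 at short to above 0 at long transcripts, and the members lie below them in the 4 ranges shown.

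Other genes of the pathway fell in tm4b relative to tm4a in cardiomyocyte-like cells in part, where 6.21% of all genes fell and 6.26% rose. These shares are over genes of every transcript length, and the part of length in the counts of the lists was not tested. Of complex II, 3 of 4 genes fell (Sdha by 0.35, Sdhb by 0.32 and Sdhc by 0.25 on the log2 scale). Of fatty acid oxidation 9 of 17 fell and 1 rose, among them Acads (−0.42) and Fabp3 (−0.35). Of the mitochondrial ribosome 36 of 75 fell and 1 rose, among them Mrps21 (−0.89) and Mrps33 (−0.55). Of the citric acid cycle and pyruvate dehydrogenase 6 of 24 fell (Pdk4 −0.52, Pdhb −0.45), of the assembly factors 7 of 39 fell and 1 rose (Coa3 −0.40, Tmem70 0.39), and of the mitochondrially encoded transcripts 4 of 19 fell (mt-Co1 −0.60, mt-Cytb −0.45). Among 17 regulators, Yy1 (0.63), Gabpa (0.56) and Hif1a (0.40) rose and Pprc1 (−0.54) fell. Between KO and WT in cardiomyocyte-like cells, 0 genes of the nuclear lists passed (1.39% of all genes called), and of the mitochondrially encoded transcripts mt-Ty (1.91) and mt-Nd5 (0.64) were higher in KO libraries.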

How the data were processed

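The table deposited by the authors gives raw UMI counts for each gene in each barcode. The submitters' processing notes name the build mm10 and the tools Seurat 2.1 and bcl2fastq 2.17, and no further step is given in the sources read. In the table itself, no barcode had fewer than 251 detected genes or more than 10% mitochondrially encoded UMIs. Of 55152 barcodes, 50899 had at least 300 detected genes. Scrublet in scanpy 1.11.5 called 124 of them doublets (0.244%, under 0.5% in 14 of 15 libraries), so the caller did not work, and removing the 5% of cells with the highest scores was an alternative. The remaining 50775 cells were clustered (Leiden, leidenalg 0.10.2, resolution 1, 2000 variable genes, 30 components) without the 80 genes, Adamts19, LacZ, sex-linked and mitochondrially encoded genes, into 24 clusters named from marker lists. The thresholds for naming were set after the clusters were seen.

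Counts were summed per library and class (at least 10 cells) and tested with edgeR 4.0.16 (R 4.3.3; quasi-likelihood test, TMM, filterByExpr), adjusting by Benjamini-Hochberg over all genes tested and a threshold of 0.05. Of 80 members, 78 passed the filter in all kept cells. Fold changes are log2 with standard error. CPM use the sum's own UMI total. DESeq2 1.42.0 was an alternative. The test was also run on simulated counts with known fold changes. These had the same dispersion for every gene and no litter or flow cell effect. They cannot show how often such effects give false calls, and no result here rests on them.

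Named are all members past the threshold where 12 or fewer passed, otherwise up to 3 per complex and direction, the most abundant of each complex and the isoform pairs. Other pathway genes were named up to 4 per list. The members, lists and comparisons were chosen with earlier results of these data known. The alternatives with 1 KO allele and without TMM factors were chosen after seeing the data. Transcript lengths and shared 3′ ends came from the GENCODE annotation of the same build.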

Additional observations from a re-analysis of the deposited data

Results flagged for a closer look

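Shares of isoform pairs were checked for single libraries that stand apart in 128 groups of 4 to 8 libraries, and 5 were found. The groups overlap, because the KO group holds the libraries of both alleles, and some shares are at or near 0. A chance rate of about 1 in 20 for separate groups thus cannot be set against this count. Cox6a2 made up 39.0% of its pair in compact-type cells of KO replicate 8, against 37.0% in the nearest of the other tm4b libraries. Cox4i2 made up 0.203% of its pair in trabecular-type cells of WT replicate 7, against 0.0872% in the nearest WT library. It made up 0.108% there in KO replicate 1, where every other KO library, and so every other tm4a library, was at 0. The trabecular-type sums were small, at 28 cells and 78237 UMIs in WT replicate 7 and 105 cells and 416323 UMIs in KO replicate 1. Shares this low thus rest on few UMIs. Ndufa4l2 made up 0.296% of its pair in atrial-type cells of KO replicate 1, against 0.105% in the nearest KO library.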

How the results depend on the processing

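Member counts changed as follows, and the cause was not tested. KO against WT, in the order all kept, cardiomyocyte-like, other, valve interstitial-like, endocardial-like and fibroblast-like cells, DESeq2 called 3, 2, 4, 3, 6 and 4 members and the fit without WT replicates 1 to 4 called 4, 10, 8, 11, 13 and 8, all lower, where it called 3.02, 3.56, 2.64, 2.35, 3.31 and 1.93% of all genes lower. Without TMM factors 1 member passed in cardiomyocyte-like cells. Removing the 5% of cells with the highest doublet scores gave 2 in other cells, 1 in fibroblast-like cells and 1 for the difference between cell classes. In valve interstitial-like and endocardial-like cells the count was 0 with flow cell as a covariate, with litter sums, and with either allele alone, all fits with fewer WT libraries to compare, fewer sums or fewer KO libraries.

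Leaving out 1 library gave, in the same order, 0 to 2, 0 to 2, 0 to 3, 0 to 2, 0 to 4 and 0 to 3 members, and the higher counts came without WT replicate 1 or 3. For tm4b against tm4a it gave 20 to 57 over all kept cells, 37 to 54 in cardiomyocyte-like cells and 10 to 41 in other cells. It gave 77 to 77 for cardiomyocyte-like against other cells, 65 to 70 for atrial-type, 31 to 35 for trabecular-type cells and 0 to 1 for the difference between classes.

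With the replicate number as a replicate block, 0 members passed in all 6 comparisons. The numbers do not pair libraries: deviations of same-numbered WT and KO libraries correlated at r = −0.513 to 0.144, 1 of 7 pairs was over 0.1, and 0 of 7 libraries correlated best with its own number.

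Of 3110 alternative values of 141 named fold changes, 2956 kept direction and side of the threshold, 94 lost and 52 gained the call, and 8 changed sign. These were Cox6a2 (0.088) and Cox7a1 (0.074) in cardiomyocyte-like cells with tm4a alone, Cox5a in other cells between alleles without KO replicate 1, 3 or 5 (−0.030, −0.014 and −0.043, lowest of a range up to 0.12), Cox6a1 with called doublets kept (0.0011) and Cox7a1 with no filter (−0.0095) in trabecular-type cells, and Cox6a2 in the difference between classes without WT replicates 1 to 4 (−0.19). All 75 alternatives of 35 levels and shares moved by less than 1 SD.

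Over all genes, KO against WT calls varied more: DESeq2 gave 476, 404, 342, 90, 122 and 128 genes in the same order, against 28, 157, 18, 18, 25 and 4 by edgeR, and the flow cell covariate gave 6, 2, 4, 2, 5 and 2, and litter sums 2, 2, 1, 3, 0 and 2.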
